A study of Mus musculus with 6 samples.

Results

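Fgf18, a secreted fibroblast growth factor, was examined together with the 4 FGF receptor genes Fgfr1 to Fgfr4, the sprouty genes Spry1, Spry2 and Spry4, and the transcription factor genes Etv4 and Etv5. Fgf18 was chosen for its rise on all knockout arrays, and the other genes for their place in its signalling pathway. These 10 genes, of 18193 named on the array, were measured by every probe set annotated with exactly one of their symbols, which gave 26 probe sets among 45037. A probe set is a group of short probes that together measure a transcript, usually near its 3' end. The RNA came from the stria vascularis, the vascularised epithelium on the lateral wall of the cochlea, of mice at postnatal day 10. There were 3 arrays of mice heterozygous for loss of Slc26a4 (replicates 1, 3 and 5), with 1 working copy, and 3 of knockout mice with none (replicates 2, 4 and 6). Slc26a4 encodes the anion exchanger pendrin. All animals carried at least 1 mutant allele, and no wild-type group was analysed here. The strain, and whether an array held 1 animal or a pool, were not given in the sources used here, and p-values here reflect only the variation among these arrays, which may be in part technical.

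FGF ligands bind receptor tyrosine kinases together with heparan sulphate on the cell surface, and the receptors signal through adaptor proteins to the RAS-ERK kinase cascade. The cascade switches on its own inhibitors, the sprouty proteins, and the ETS-family factors ETV4 and ETV5, so the mRNAs of these genes are widely used as readouts of FGF activity. FGF18 belongs to the same subfamily as FGF8 and FGF17, and in the mouse skeleton it acts on cartilage and bone cells, in cartilage mainly through FGFR3. In the mouse cochlea, FGFR3 and SPRY2 take part in the patterning of the organ of Corti.

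The labels were first set against the data. Slc26a4 lay at 221, 248 and 1006 in the heterozygous samples and at 75.5, 106 and 154 in the knockout samples, so each knockout array was below each heterozygous one. Its log2 difference was -1.69 ± 0.50 (SE, adjusted p = 0.370 in limma). Markers of strial cells were measured in every array: of the marginal, intermediate and basal cell lists, 7, 8 and 7 genes were above the filter on dim probe sets, and of 5 skeletal muscle genes 0 were. The list medians were -0.033, -0.25 and 0.0098, and macrophage genes had 0.21 with 9 of 10 higher, none past the test. Over all 12428 genes tested, 0.00805% passed at an adjusted p of 0.05 and 6.35% had an unadjusted p under 0.05. Knockout replicate 4 stood apart in most of its vascular genes, with the median of 8 endothelial markers at -1.44 relative to the heterozygous mean on the log2 scale. Kdr, 1 of these markers, went the other way, at 579 in that array against 429, 539 and 433 in heterozygous samples.

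Fgf18 was near the bottom of the measured range in heterozygous samples and several times higher in every knockout sample. On its only probe set, 1449545_at, the signal was 46.7, 38.9 and 41.3 in heterozygous replicates 1, 3 and 5. In knockout replicates 2, 4 and 6 it was 275, 249 and 304. The lowest knockout value was thus far above the highest heterozygous value, and the replicates of each group lay close together. The means were 42.3 ± 4.0 and 276 ± 27.5 (SD, n = 3 each), a ratio of 6.52. On the scale of log2(signal + 16), used for all differences here because it damps the noise of dim probe sets, the difference was 2.32. These values are a description, since the gene was chosen for them. The heterozygous mean on this scale, 5.86, lay just under the filter cutoff of 5.90, so Fgf18 was tested only through its knockout level, and its heterozygous level cannot be told from background.

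**Figure D1:**
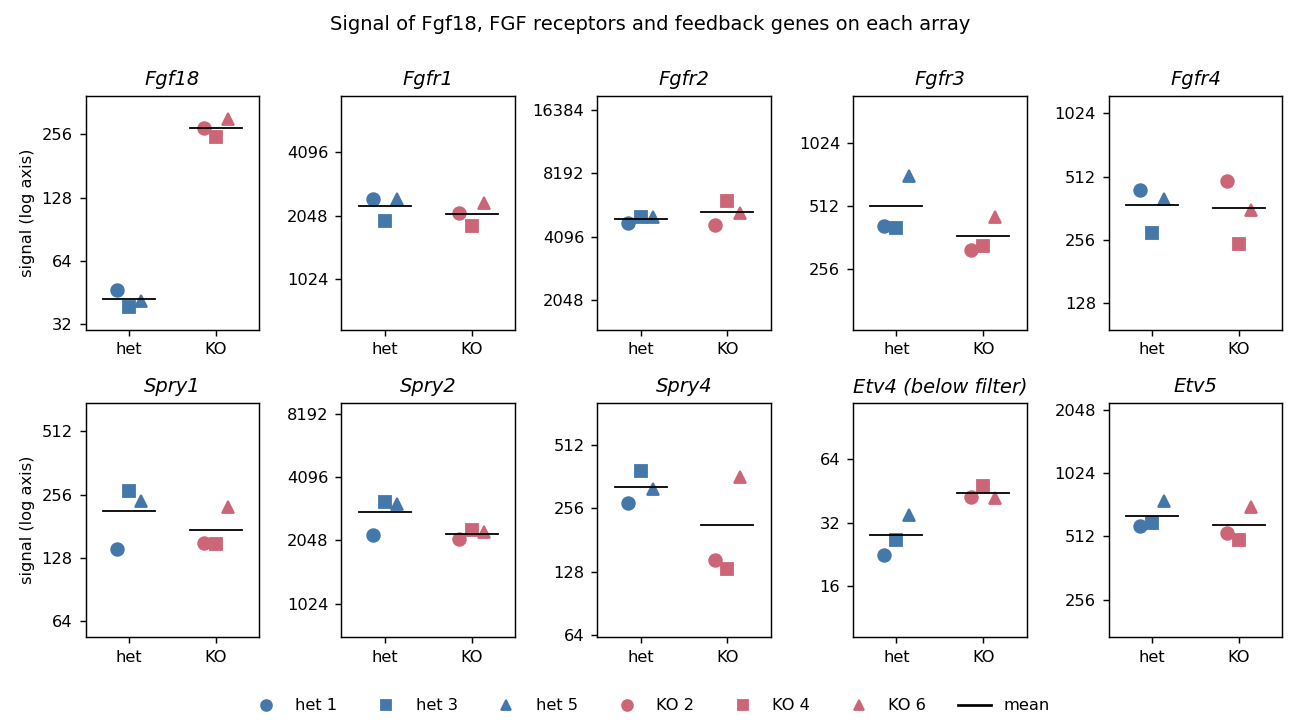
Signal (log2-spaced axis, each panel spanning the same fold range) of the brightest probe set of each of the 10 genes, with 1 point per array, circles, squares and triangles for the replicates in order, blue for heterozygous and red for knockout, and a line at each group's mean. Fgf18 lies at 38.9 to 46.7 in heterozygous and 249 to 304 in knockout samples, while in the other tested genes the groups overlap.

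The promoters of Fgf18, the gene that differed, and of Spry2, the feedback gene with the brightest probe set, are shown for comparison of the ligand with a readout gene. Both are RefSeq sequences of build GRCm38.p6, from 250 bases before to 50 bases after the start site, written 5′ to 3′ on the gene's strand. Fgf18 lies on the minus strand with its window at chr11:33147351-33147650, and Spry2 on the minus strand with its window at chr14:105896770-105897069. Capitals mark matches on either strand to the TATA box TATAAA, the GC box GGGCGG, the RUNX motif TGTGGT, the TCF/LEF motif CTTTGA or the ETS motif CCGGAA.
Fgf18: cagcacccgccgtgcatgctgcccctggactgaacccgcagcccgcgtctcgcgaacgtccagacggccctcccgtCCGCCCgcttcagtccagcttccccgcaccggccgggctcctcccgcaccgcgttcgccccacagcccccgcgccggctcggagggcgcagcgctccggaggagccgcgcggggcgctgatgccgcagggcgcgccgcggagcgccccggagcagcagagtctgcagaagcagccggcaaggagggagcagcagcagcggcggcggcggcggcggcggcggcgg
Spry2: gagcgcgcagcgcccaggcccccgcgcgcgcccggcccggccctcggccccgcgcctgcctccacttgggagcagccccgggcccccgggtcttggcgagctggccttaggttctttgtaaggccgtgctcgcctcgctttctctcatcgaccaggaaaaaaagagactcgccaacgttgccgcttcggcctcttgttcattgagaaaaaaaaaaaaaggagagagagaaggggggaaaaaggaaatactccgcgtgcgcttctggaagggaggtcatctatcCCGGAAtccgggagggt
The Fgf18 window is 78.7% G or C and holds 47 CpG dinucleotides, with 1 GC box on the opposite strand, starting 174 bases before the start site. The Spry2 window is 62.7% G or C with 28 CpG dinucleotides and holds 1 ETS match, starting at base 34 of the transcript. Among all 32851 promoter windows in the table, 35.7% hold the GC box, 14.9% the ETS motif, 16.8% the RUNX motif, 16% the TCF/LEF motif and 13.6% the TATA box. The table gave 9 windows for 7 of the members, and among these Fgfr4 also held 1 ETS match.

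The genes whose pattern over the 6 arrays was most like that of Fgf18 were Scn9a, Vnn1, Gask1b, Npr3, Tfap2c and Scn7a. Likeness was measured as the root mean square difference between each probe set's deviations from its heterozygous mean and those of Fgf18, over 22885 other named probe sets. The closest was Scn9a, a voltage-gated sodium channel, with a difference of 0.23 and signals of 37.7, 35.7 and 26.8 in heterozygous against 285, 159 and 216 in knockout samples. Its heterozygous mean, 33.4, was under the filter's signal of 43.9, so like Fgf18 it was included only through its knockout level. It was followed by the pantetheinase gene Vnn1 (0.34), Gask1b (0.47), the natriuretic peptide clearance receptor gene Npr3 (0.53), the transcription factor gene Tfap2c (0.57) and the sodium channel gene Scn7a (0.60). Tfap2c lay at 76.2, 107 and 149 in heterozygous and at 377, 504 and 1372 in knockout samples. In each of these 6 genes every knockout array lay above every heterozygous one, as in Fgf18, which the measure favours. The closest of the receptor and feedback probe sets, Fgfr2 1443211_at, ranked 1911 with a difference of 1.36, and the brighter Spry4 probe set ranked 22583. These ranks largely restate the log2 differences given below and add no separate test.

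Markers of skeletal cells were higher in knockout samples too, and the medians of several of these lists set the genotypes apart as Fgf18 did. Of 6 tested osteoblast and osteocyte genes 5 had a higher mean. Their median difference was 1.13, and none passed the test. The list's median deviation from the heterozygous mean was -0.47, -0.099 and 0.57 in heterozygous replicates 1, 3 and 5 and 0.62, 1.43 and 1.39 in knockout replicates 2, 4 and 6. Every knockout array was thus above every heterozygous one, by a narrow margin between heterozygous replicate 5 and knockout replicate 2. The median of all probe sets was itself 0.20 higher in knockout samples on the log2 scale. The list medians were not recomputed with that shift removed. Dmp1, an osteocyte phosphoprotein gene, had the smallest p of the list. Its signals were 1428, 1862 and 3265 in heterozygous and 3286, 4991 and 5438 in knockout samples, again without overlap. All knockout arrays lay above in 3 of the 6 tested genes, against 6.05% of all 12428 genes. In Col1a1, Sp7 and Alpl the groups overlapped, and Alpl was lower in knockout samples (-0.11). The summed signal of the list ranged from 3957 to 8066 in heterozygous and from 7680 to 13128 in knockout samples, and Sost, Mepe and Ifitm5 were below the filter. Of the 12 genes listed, 9 had a probe set with 1 symbol, and Runx2, Bglap and Spp1 had none.

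All 3 tested osteoclast genes (Mmp9, Ctsk and Acp5) had a higher mean, with a median difference of 1.37 and none passing the test. In all 3 every knockout array lay above every heterozygous one, as in 6.05% of all 12428 genes. Mmp9 averaged 32.9 in heterozygous samples, under the filter's signal of 43.9, so it was tested only through its knockout level. The median deviation of the 3 genes was 0.24, -0.30 and -0.041 in heterozygous and 1.02, 0.70 and 2.63 in knockout samples, in the order of the replicates. Calcr, Dcstamp, Ocstamp, Oscar, Atp6v0d2 and Tnfrsf11a were below the filter. Chondrocyte genes had a median difference of 0.31 with 6 of 8 higher and none passing. Their median deviation was -0.069, 0.034 and 0.00069 in heterozygous and 0.30, 0.34 and 0.21 in knockout samples. The medians of these lists too were thus higher on every knockout array. The chondrocyte values were near the size of the 0.20 shift named above. That shift is over all probe sets, and the median difference over the tested ones was -0.0044. Spiral ligament fibrocyte genes had a median of 0.16 with 7 of 11 higher and none passing, and their list medians overlapped between the genotypes. Over all 12428 genes the median was -0.038. In such bulk samples, more cells of a type and more RNA per cell cannot be told apart, and the part of these cells in the Fgf18 level was not tested.

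**Figure D2:**
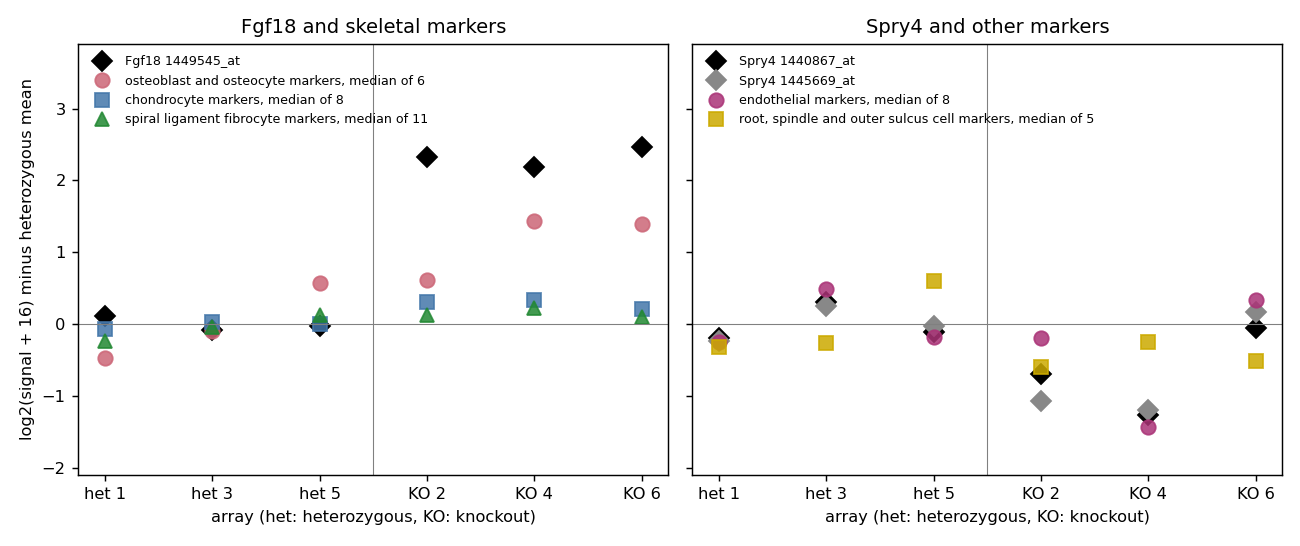
Deviation from the heterozygous mean, in log2(signal + 16), on each array for Fgf18 with 3 skeletal or fibrocyte marker lists (left) and for 2 Spry4 probe sets with the endothelial and the root, spindle and outer sulcus cell lists (right), each list as the median of its tested genes. Fgf18 and the median of the osteoblast and osteocyte markers are higher on every knockout array than on any heterozygous one. For the latter the margin is narrow (0.62 against 0.57). Spry4 is lowest in knockout replicate 4, as is the median of the endothelial markers.

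No receptor or feedback gene passed the test. Of the 25 probe sets other than that of Fgf18, 18 were above the filter and 7, too dim to be tested, were not. Among the 18, limma called 0 at an adjusted p of 0.05, and 0 had an unadjusted p under 0.05. The share called over all 27022 probe sets tested was 0.00370%, which counts Fgf18 and is no test of it. An unadjusted p under 0.05 was found for 11.6% of them, and for 7.98% of those with 1 symbol. Of the 18, 8 were higher and 10 lower in knockout samples, with a median of -0.026, against -0.027 over all tested probe sets with 1 symbol. The groups did not overlap in 2 of them, both above, where the share over all tested probe sets with 1 symbol is 7.78% above and 6.43% below. Among the 18, the highest upper bound of a 95% interval was 1.02, for Fgfr2 1443211_at. The Fgf18 difference of 2.32 is the value the gene was chosen for, so it is no test threshold. Etv4, below the filter, has no interval.

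**Figure D3:**
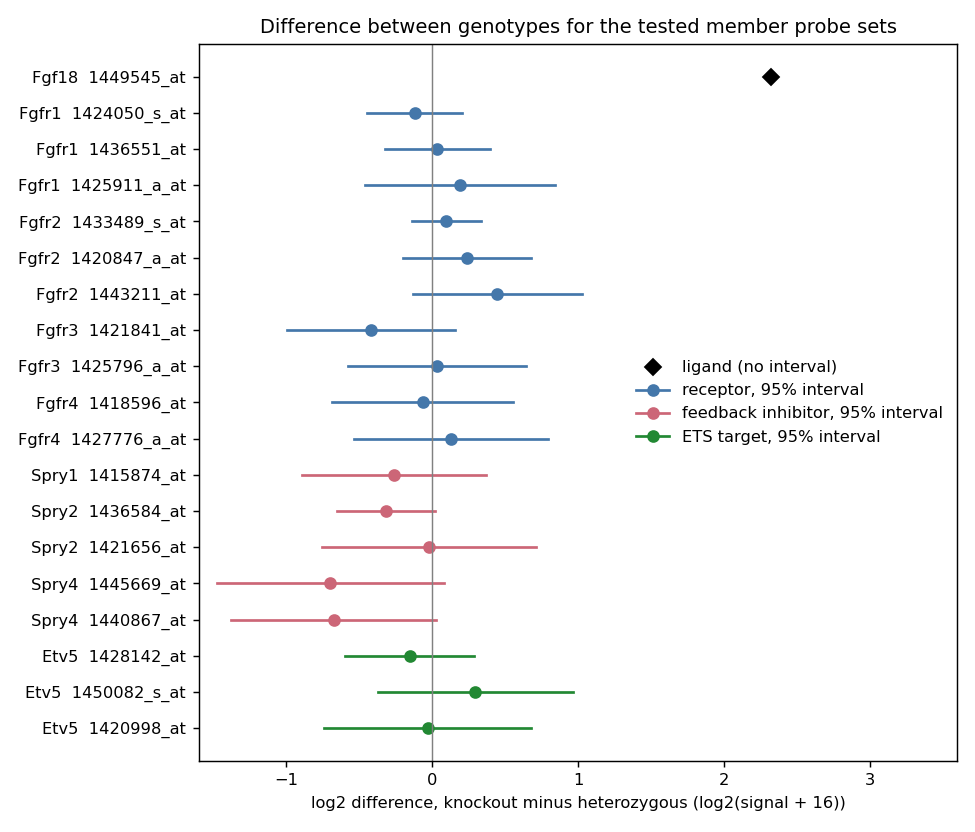
Log2 difference, knockout minus heterozygous, of the 19 tested probe sets, with the 95% interval of the limma fit for receptors (blue), sprouty genes (red) and Etv5 (green), and no interval for Fgf18 (black), which was chosen for its difference. The 18 intervals all include 0, and the values range from -0.70 to 0.45 against 2.32 for Fgf18.

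Among the receptors, Fgfr1 and Fgfr2 gave bright, steady signals in both genotypes on their brightest probe sets. Fgfr2, whose splice forms serve epithelial and mesenchymal cells, lay on its brightest probe set, 1433489_s_at, at 4772, 5047 and 5079 in heterozygous and at 4669, 6060 and 5283 in knockout samples. The groups overlapped, and the log2 difference was 0.096 with a 95% interval from -0.14 to 0.33 (limma adjusted p = 0.768). The 2 dimmer Fgfr2 probe sets were higher on every knockout array, with differences of 0.24 (1420847_a_at) and 0.45 (1443211_at). For 1420847_a_at the margin was very narrow, with the lowest knockout signal at 274 and the highest heterozygous one at 272 (limma adjusted p = 0.681). For 1443211_at the signals were 119, 80.8 and 126 in heterozygous and 134, 194 and 133 in knockout samples, so the groups were only just apart (limma adjusted p = 0.539). Its difference was 0.28 without knockout replicate 4 and 0.27 without heterozygous replicate 3.

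Fgfr1, which carries FGF signals in many mesenchymal tissues, lay on 1424050_s_at at 2450, 1922 and 2458 in heterozygous and at 2100, 1826 and 2347 in knockout samples. Its log2 difference was -0.12 (95% interval -0.44 to 0.20, limma adjusted p = 0.791), against 0.036 and 0.19 on the dimmer probe sets, so no direction was common to the gene's 3 probe sets. Fgfr4 gave -0.066 and 0.13 on its 2 tested probe sets, with signals of 444, 277 and 400 against 487, 245 and 357 on 1418596_at. In both genotypes the spread between replicates was wider than the difference of the means, and the other 3 Fgfr4 probe sets never exceeded 45.7.

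Fgfr3, the main receptor of FGF18 in growing cartilage, had the lowest value of the receptors. On 1421841_at it lay at 411, 403 and 712 in heterozygous and at 318, 332 and 454 in knockout samples. Knockout replicates 2 and 4 were below all heterozygous samples, while knockout replicate 6 was above heterozygous replicates 1 and 3. The log2 difference was -0.42 (95% interval -0.995 to 0.16, limma adjusted p = 0.567). Without heterozygous replicate 5, the brightest sample, it was -0.16. That array was also the highest in markers of root, spindle and outer sulcus cells, whose median deviation there was 0.60 over 5 tested genes, among them Slc26a4 itself. The summed signal of those 5 genes ranged from 11639 to 19265 in heterozygous and from 10003 to 12719 in knockout samples, Lgr5 was below the filter, and the part of these cells in the Fgfr3 value was not tested. The dim second Fgfr3 probe set, 1425796_a_at, gave 0.032 with signals between 41.8 and 71.4 on all arrays.

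The sprouty genes, which damp receptor signalling and are switched on by it, were lower on average where the ligand was higher, without passing the test. On the log2 scale, all 5 tested probe sets of Spry1, Spry2 and Spry4 had a lower mean in knockout samples. Their median difference was -0.32. Of all 12428 genes tested, 7056 were lower. In mean signal, Spry2 1421656_at was slightly higher in knockout samples, at 53.6 against 51.0 in heterozygous samples. The dim Spry2 probe set 1421656_at changed sign with the offset of 64 (0.0082), with array weights (0.26) and without single arrays, while the other 4 stayed lower under every scaling and every left-out array. Spry4 had the lowest values. On 1445669_at its signals were 272, 386 and 317 in heterozygous and 145, 131 and 363 in knockout samples. Knockout replicates 2 and 4 lay below all heterozygous samples, while knockout replicate 6 lay among them. The log2 difference was -0.70 (95% interval -1.48 to 0.078, limma adjusted p = 0.471), and 1440867_at gave -0.67 (95% interval -1.38 to 0.030, limma adjusted p = 0.444). Without knockout replicate 6 the values were -1.13 and -0.98, and without knockout replicate 4 they were -0.45 and -0.38.

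The order of the arrays in Spry4 resembled that of the endothelial marker median, a comparison that was not planned beforehand. On 1440867_at the highest signals were those of heterozygous replicate 3 (318) and knockout replicate 6 (243), and the lowest that of knockout replicate 4 (95.8). The median deviation of 8 endothelial genes was 0.49 and 0.33 in the first 2 of these arrays and -1.44 in the third. Their summed signal ranged from 5385 to 9513 in heterozygous and from 2592 to 8549 in knockout samples, with 7 of 8 lower in knockout samples, none past the test and none below the filter. Knockout replicate 2 was low in Spry4 (151) but close to heterozygous replicates 1 and 5 in the endothelial median (-0.19, against -0.25 and -0.18). The part of vascular content in the Spry4 values was not tested further.

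Spry2 was the brightest sprouty gene. On 1436584_at, whose promoter is printed above, it lay at 2173, 3134 and 3060 in heterozygous samples and at 2085, 2285 and 2247 in knockout samples. The knockout values were close together and near the lowest heterozygous sample, and the groups overlapped through that sample alone. The log2 difference was -0.32 (95% interval -0.65 to 0.018, limma adjusted p = 0.448). Leaving out heterozygous replicate 1 gave -0.49, and leaving out replicate 3 of that group gave -0.23. Spry1 lay at 141, 267 and 239 against 151, 149 and 223, a difference of -0.26 (limma adjusted p = 0.764) that lay between -0.52 (without heterozygous replicate 1) and -0.093 (without heterozygous replicate 3) when single arrays were left out. The remaining 2 Spry4 probe sets, at 1.46 to 23.5, were too dim to be tested.

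Among the ETS factors, the 3 tested probe sets, all of Etv5, did not share a direction. Etv5 on its brightest probe set, 1428142_at, lay at 575, 595 and 755 in heterozygous and at 531, 494 and 708 in knockout samples, a log2 difference of -0.16 (95% interval -0.60 to 0.29, limma adjusted p = 0.804). Its dimmer probe sets gave 0.30 (1450082_s_at) and -0.032 (1420998_at), and on all 3 the highest sample was heterozygous replicate 5. Without that array 1428142_at differed by -0.035 and 1450082_s_at by 0.60. Etv4 was dim on both of its probe sets and was not tested. On 1423232_at it lay at 22.5, 26.3 and 34.6 in heterozygous and at 42.25, 48.0 and 41.9 in knockout samples, so that each knockout array was above each heterozygous one, as in 7.69% of all probe sets with 1 symbol. On 1443381_at the values were 14.6, 10.2 and 36.8 against 29.8, 45.9 and 59.8, and the groups overlapped. The log2 differences were 0.46 and 0.78, and both levels were too low to be told from background.

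**Figure D4:**
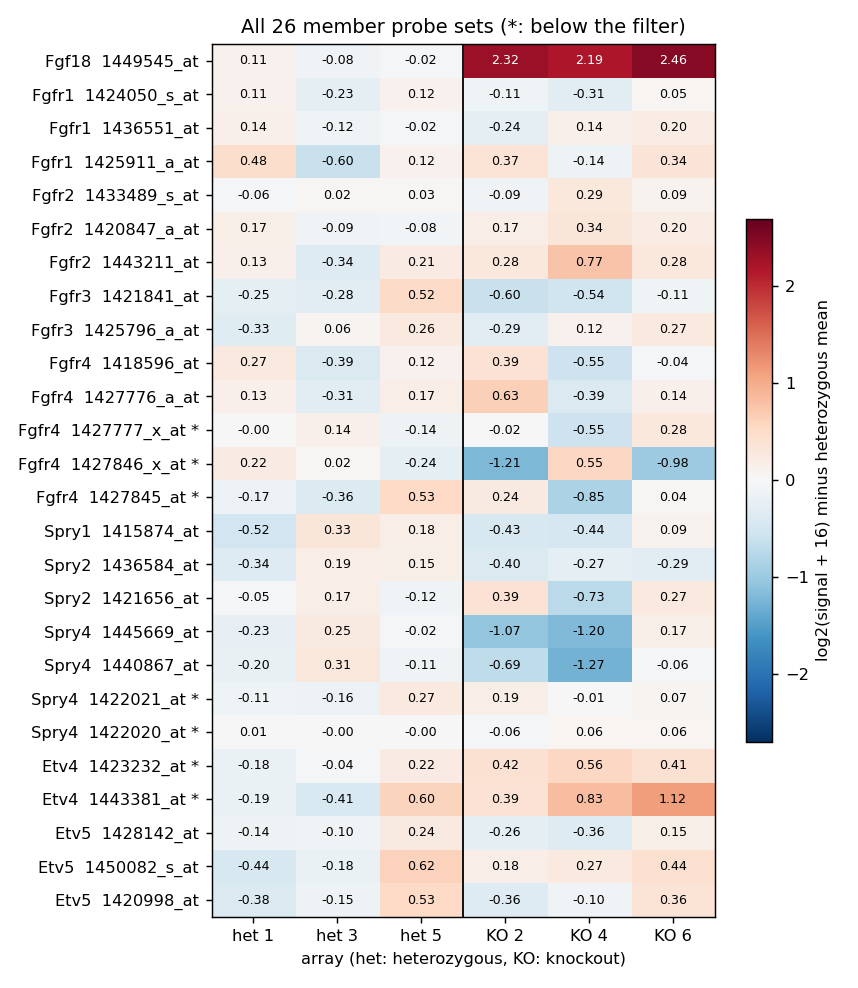
Deviation of log2(signal + 16) from the heterozygous mean for all 26 probe sets (rows; an asterisk marks the 7 below the filter) on each array (columns, heterozygous left and knockout right), red for higher and blue for lower. Fgf18 is at 2.19 to 2.46 on the knockout arrays, Spry4 is at -1.20 and -1.27 in knockout replicate 4, and most other cells are pale.

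Of the other FGF ligands, few were measurable. Among 22 ligand genes on the array, 16 were below the filter, with no signal above 55.0 on any array, and these included the other members of the FGF18 subfamily, Fgf8 and Fgf17. Besides Fgf18, 5 were tested, 1 higher and 4 lower in knockout samples, and none passed (limma; 1 had an unadjusted p under 0.05). That was Fgf13, an intracellular FGF-like protein that binds sodium channels and does not act through the receptors. It lay at 586, 675 and 526 in heterozygous and at 307, 236 and 312 in knockout samples, without overlap, a log2 difference of -1.03 ± 0.20 (SE, limma adjusted p = 0.338). Fgf1, a ligand of all 4 receptors, gave -0.27 on its brightest probe set, with signals of 2526, 2855 and 3091 against 1861, 2384 and 2879, and its dimmer probe sets gave -0.40 and 1.11, the latter with 384 in knockout replicate 4 and 146 or less elsewhere. Fgf9 lay at 155, 223 and 348 against 211, 180 and 178, a difference of -0.26, with heterozygous replicate 5 again the highest. Fgf10, a ligand of the epithelial form of FGFR2, was below the filter at 1.52 to 30.7.

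Proteins that carry FGFs or assist their receptors went both ways. Of 27 tested genes for co-receptors, binding proteins and heparan sulphate, 12 were higher and 15 lower, with a median of -0.016. None passed (limma; 6 of the 27 had an unadjusted p under 0.05, against 6.35% of all 12428 genes). The knockout arrays were all above in 3 (Gpc4, Fgfbp1 and Agrn) and all below in 1 (Kl), against 6.05% and 7.03% of all 12428 genes. Kl encodes klotho, the co-receptor of the hormone FGF23. It lay at 158, 142 and 169 in heterozygous samples and at 72.9, 67.7 and 70.3 in knockout samples on 1423400_at, a log2 difference of -0.995 ± 0.22 (SE, limma adjusted p = 0.370). The knockout values were tightly grouped below all heterozygous ones, but on the dim second Kl probe set the difference was -0.11.

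Fgfbp1, a secreted carrier that frees FGFs from heparan sulphate, lay at 220, 117 and 146 in heterozygous and at 744, 260 and 284 in knockout samples (log2 difference 1.21 ± 0.39 SE, limma adjusted p = 0.370). Knockout replicate 2 was far above the others. Gpc4, a heparan sulphate proteoglycan of the cell surface, differed by 0.45, but its second bright probe set gave -0.061. The related Gpc3 differed by -0.63, with overlap. Fgfrl1, a receptor without a kinase domain, differed by 0.085 and 0.022 on its 2 probe sets.

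Genes of the cascade inside the cell were close to level. Of 16 tested adaptor and RAS-ERK genes, 8 were higher and 8 lower, with a median of 0.030 and none passing (limma; 1 had an unadjusted p under 0.05). Plcg1, the phospholipase that docks directly on FGF receptors, lay at 4629, 4104 and 4463 against 4814, 5890 and 5098, a difference of 0.26 (limma adjusted p = 0.391). The adaptor gene Frs3 differed by 0.45, where knockout replicate 4 (269) was far above the other knockout samples (140 and 149). The exchange factor gene Sos2 differed by -0.14, and Braf, a kinase of the cascade, by 0.25 on its brightest probe set.

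Further feedback and response genes were likewise close to level. Of 15 tested, 6 were higher and 9 lower, with a median of -0.031 and none passing (limma; 0 had an unadjusted p under 0.05). Dusp6, the phosphatase that switches ERK off and is among the most direct FGF readouts, lay at 3091, 3655 and 3171 in heterozygous and at 2803, 2584 and 3240 in knockout samples. The groups overlapped through knockout replicate 6, and the log2 difference was -0.20 (95% interval -0.47 to 0.069, limma adjusted p = 0.556). Il17rd, a membrane inhibitor of FGF receptors, gave 0.084 on its tested probe set. Spred1, an inhibitor of RAS activation, gave -0.030 on its brightest, while 1 of its dim probe sets gave 1.01 through knockout replicate 4 (383, against 132 and 94.7 in the other knockout samples). The growth regulator Myc differed by 0.59 without overlap (120, 73.7 and 82.5 against 186, 128 and 125, limma adjusted p = 0.430), Dusp5 by 0.26 and Ccnd1 by 0.19.

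Genes that act upstream of Fgf18 or with it in the skeleton were mostly a little higher. Of 13 tested, 10 were higher and 3 lower, with a median of 0.093 and none passing (limma; 0 had an unadjusted p under 0.05). Over all 12428 genes tested, 43.2% were higher. The list median was smaller than the 0.20 by which median centring lowers every difference. That 0.20 is the shift over all probe sets, and over the genes tested the median difference was -0.038. Ctnnb1, which encodes beta-catenin, lay at 9217, 9253 and 9339 against 10010, 11818 and 9756, without overlap and with a difference of 0.18 (limma adjusted p = 0.443). The osteoblast factor gene Sp7 lay at 59.6, 62.3 and 92.4 in heterozygous and at 58.2, 212 and 156 in knockout samples (0.73). It was lowest in knockout replicate 2 and high in the other 2 knockout samples. Dlx5, a homeobox factor of osteoblasts, differed by 0.53. The 3 lower genes were Bmp2, a bone morphogenetic protein (-0.68), Bmp4 (-0.57) and Timp1 (-0.76), all with overlap.

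**Figure D5:**
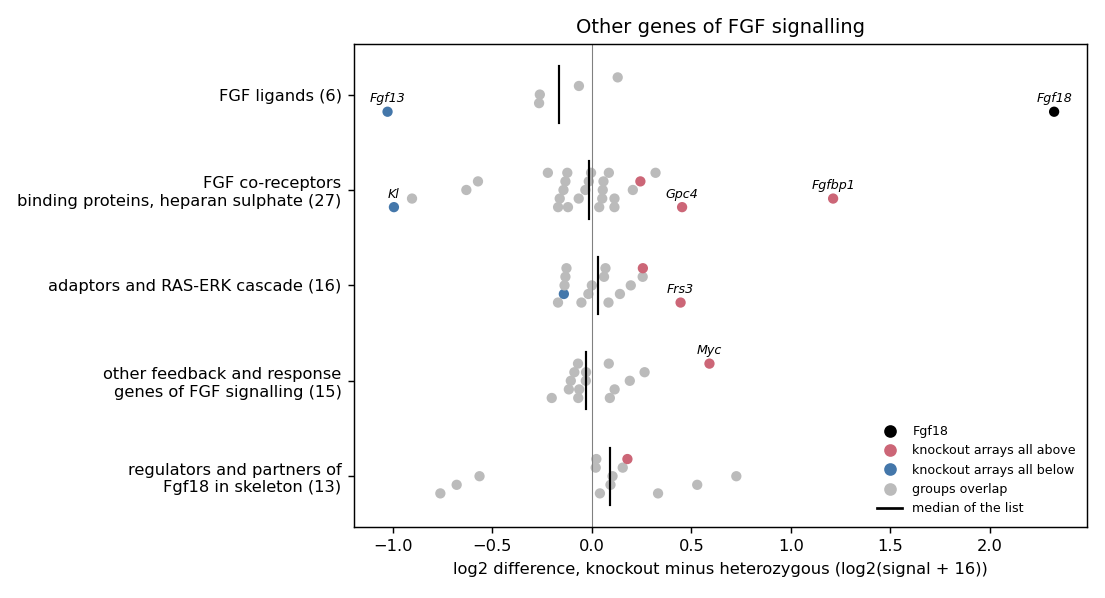
Log2 difference, knockout minus heterozygous, of each tested gene (1 point per gene, its brightest probe set) in 5 lists of FGF pathway genes, with the number tested in parentheses, a line at each list's median, red where all knockout arrays lie above, blue where all lie below, grey where the groups overlap, and black for Fgf18. List medians lie between -0.16 and 0.093, Fgf13 and Kl lie at -1.03 and -0.995, and Fgf18 is at 2.32.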

How the data were processed

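Stria vascularis RNA from 3 heterozygous and 3 knockout mouse samples was hybridised, after NuGEN Ovation labelling, to Affymetrix mouse arrays, per the labels' protocols. The table the authors deposited holds linear signal intensity from GCOS (named in the submitters' processing notes, which state no version). The 2% trimmed mean was 500.002 on every array, so the authors' values share a common scale. Detection calls were not used here.

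The members, lists and tests were chosen with earlier results of these data known. After 64 control probe sets were left out, log2(signal + 16) was computed. Probe sets with a mean log2 value under the 40th percentile (5.90, a signal of 43.9) were removed, which left 27022 of 45037. limma 3.58.1 in R 4.3.3 (lmFit, eBayes with a variance trend) compared the genotypes, two-sided, with Benjamini-Hochberg adjustment over all 27022, and ± beside a log2 difference is its SE. The number of arrays limits the precision; the smallest exact permutation p for 3 against 3 is 0.1, so none was computed. Symbols came from the platform annotation, with 34945 probe sets having 1 symbol, 932 several and 9160 none. Lists used the brightest tested probe set of each gene. Levels on each array were planned for the bone, cartilage and fibrocyte lists. Those of the endothelial and the root, spindle and outer sulcus cell lists were not planned. Named were all members, up to 4 genes per pathway list by p with 8 preset pathway genes, the 6 genes most like Fgf18 and Slc26a4; other marker genes were named after their values were seen. Figures were drawn with matplotlib 3.10.9.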

Additional observations from a re-analysis of the deposited data

How the results depend on the processing

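No paired analysis was possible because the groups share no replicate number. No receptor or feedback probe set was called under any of the 16 alternatives. Of 272 values of the 18 tested receptor and feedback probe sets, 244 kept their sign and 28 did not, and 10 probe sets kept it throughout. The Fgf18 log2 difference was 2.68 with an offset of 1, 1.68 with an offset of 64, 2.19 after quantile normalization, 2.12 after median centring and 2.25 to 2.39 without single arrays; under the 60th percentile filter it was not tested. The number of probe sets called over the whole table, 1 in the report, was 3 after quantile normalization or median centring, 0 with no filter or the 60th percentile filter, 25 with array weights, 11 with 1 probe set per gene, and 0 to 13 without single arrays (13 without knockout replicate 4, 0 without heterozygous replicate 5 or knockout replicates 2 or 6). Median centring lowers every knockout minus heterozygous difference by 0.20, the shift of the median of all probe sets. It turned Fgfr1 1436551_at to -0.16, Fgfr1 1425911_a_at to -0.0074, Fgfr2 1433489_s_at to -0.10, Fgfr3 1425796_a_at to -0.17 and Fgfr4 1427776_a_at to -0.070. Quantile normalization turned Fgfr3 1425796_a_at to -0.17 and Fgfr4 1427776_a_at to -0.058. Array weights turned Fgfr1 1436551_at to -0.019, Fgfr3 1425796_a_at to -0.16, Fgfr4 1418596_at to 0.13 and Spry2 1421656_at to 0.26, and an offset of 64 turned Spry2 1421656_at to 0.0082. Without single arrays the range was -0.048 to 0.17 for Fgfr1 1436551_at, -0.11 to 0.43 for Fgfr1 1425911_a_at, -0.13 to 0.20 for Fgfr3 1425796_a_at, -0.30 to 0.18 for Fgfr4 1418596_at, -0.12 to 0.39 for Fgfr4 1427776_a_at, -0.23 to 0.33 for Spry2 1421656_at and -0.23 to 0.23 for Etv5 1420998_at. The cause of these changes was not tested. Etv4 and the dim ligands were below the filter and have no interval. The Etv4 differences given above describe dim signals only, and no difference is stated for the dim ligands.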
